A study of Mus musculus with 4 samples.

Results

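The subunits of the proteasome, its inducible immunoproteasome variants, its activators and its assembly chaperones were examined in recruited alveolar macrophages. The rows were those whose symbol begins with Psma to Psmg and a number, leaving out symbols marked as pseudogenes. They came to 49 of the 16360 rows of the count table, and all 49 were among the 13575 genes tested. Of these, 48 encode subunits, activators, an inhibitor or chaperones, and Psmc3ip, a cofactor of meiotic recombination, matches by symbol only.

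The cells came from 8 to 10 week old male mice of the strain given as CD57/Bl6. One group was homozygous for R213G, an arginine-to-glycine variant in the matrix-binding region of EC-SOD, the secreted superoxide dismutase encoded by Sod3. The other group was wild type (WT). Every mouse had been given bleomycin, a lung-injuring drug, by the intratracheal route (100 µl of 1 U/ml), and no library without bleomycin was analysed here. After 7 days, cells high for CD64 and CD11b but low for Siglec-F were sorted and their poly(A) RNA was sequenced from 2 libraries for R213G and 2 for WT. Counts per gene do not show the variant, so the genotype labels could not be checked. The sources do not say whether a library is 1 mouse or a pool, so p-values measure the spread between these libraries only.

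The proteasome is the barrel-shaped protease that degrades proteins tagged with ubiquitin. Its 20S core is a stack of rings of alpha and beta subunits, and only Psmb5, Psmb6 and Psmb7 of the constitutive beta subunits cut peptide bonds. Interferon gamma induces Psmb8, Psmb9 and Psmb10, which take their places in newly built cores to form the immunoproteasome, whose peptides are favoured for display on MHC class I. Cells of the immune system, macrophages among them, are known to carry immunoproteasomes without stimulation. The 19S particle recognises and unfolds substrates, and the PA28 activator, built from Psme1 and Psme2 and also induced by interferon gamma, opens the core without it.

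The promoters of Psmb8 and its constitutive counterpart Psmb5 are shown, as the bases before each RefSeq start. The stretch between the RefSeq starts of the divergently transcribed Psmb9 and Tap1 is shown as well. These were chosen because the inducible and constitutive subunits are read by different known regulators. Sequences are from RefSeq (GRCm38.p6), 5′ to 3′ on the strand of the named gene, and end at the base before its RefSeq start. The gene positions given further below are from another annotation, GENCODE, whose starts lie farther upstream for the printed genes. The Psmb8 and Psmb9 stretches lie wholly, and the Psmb5 stretch in part, within those GENCODE spans. Capitals mark matches, on either strand, to GAS (the gamma-activated sequence, TTCNNNGAA), ISRE (the interferon response element, searched as GAAA, 2 bases of any kind and GAAA), ARE (the element of NRF1 and NRF2, TGACNNNGC) or CCAAT.
Psmb8, chr17:34197945-34198194, plus strand: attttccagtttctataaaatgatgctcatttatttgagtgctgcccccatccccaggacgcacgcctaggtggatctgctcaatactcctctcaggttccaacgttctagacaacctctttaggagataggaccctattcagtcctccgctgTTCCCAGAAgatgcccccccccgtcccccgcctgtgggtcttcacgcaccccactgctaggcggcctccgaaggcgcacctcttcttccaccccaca
Psmb5, chr14:54617996-54618245, minus strand: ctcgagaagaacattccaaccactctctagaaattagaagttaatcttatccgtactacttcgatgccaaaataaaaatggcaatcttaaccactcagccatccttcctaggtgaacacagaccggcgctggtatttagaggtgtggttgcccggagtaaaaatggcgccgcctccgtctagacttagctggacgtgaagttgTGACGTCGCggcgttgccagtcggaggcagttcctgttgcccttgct
Psmb9, chr17:34187331-34187555, minus strand, up to the start of Tap1: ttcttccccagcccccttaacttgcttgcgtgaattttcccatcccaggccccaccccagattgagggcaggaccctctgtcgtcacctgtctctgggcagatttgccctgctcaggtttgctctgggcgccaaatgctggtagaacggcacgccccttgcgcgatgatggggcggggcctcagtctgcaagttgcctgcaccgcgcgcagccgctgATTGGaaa
The Psmb8 stretch held 1 GAS match, which begins 97 bases before the RefSeq start. The Psmb5 stretch held 1 ARE match, at 47 bases before its RefSeq start, and the Psmb9 stretch held 1 CCAAT match on the other strand. A window of 250 bases was found for 41 of the 49 genes. GAS was in 2 of these 41 (Psmb8 and Psmg1) and in 7.02% of all 32851 windows of that length. ISRE was in 3 (Psmb3, Psmd4 and Psmd9) against 2.98% of all windows. ARE was in 5 (Psmb5, Psmb6, Psmc6, Psmd9 and Psmd12) against 10.2%, and CCAAT was in 14 against 33.8%. A match describes these letters and is not a bound site.

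Total counts per library ranged from 33488569 to 35176210. Of the sort genes, Fcgr1 (CD64) was at 243 to 261 CPM, Itgam (CD11b) at 721 to 886 CPM and Siglecf at 10.8 to 12.1 CPM. CPM are counts per 1e6 of the TMM-scaled library size. R213G replicate 1 stood apart with 13584 genes detected, against 14598 to 15194 in the other libraries. Dendritic cell markers (8 of 8 measured) had a summed level of 196 CPM in R213G replicate 1 and 56.3 CPM in replicate 2. The sum was 189.5 CPM in WT replicate 1 and 46.6 CPM in replicate 2, and Xcr1 was at 0 in replicate 1 of both genotypes. The 7 epithelial markers, mainly Cdh1, summed to 221 and 105 CPM in R213G and to 166 and 100.1 CPM in WT. The 5 measured T and NK cell markers summed to 15.0 to 23.3 CPM, mostly Cd2, with Cd3d, Cd3e and Cd3g each at 0 in at least 2 libraries. B cell (2 measured), neutrophil (2), endothelial (4) and fibroblast (1) markers summed to at most 2.21, 20.65, 143 and 0.0287 CPM. The endothelial sum was mostly Vwf, at 90.5 to 136 CPM, with Pecam1, Cdh5 and Kdr at most at 3.06, 1.08 and 7.35 CPM.

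The inducible catalytic subunits were abundant in every library and did not differ detectably between genotypes. Psmb8, the chymotrypsin-like inducible subunit (GRCm38, chromosome 17, 34197721 to 34201454, plus strand), was the most abundant of them by CPM. It was measured at 217 and 167 CPM in R213G macrophages and at 160.3 and 162 CPM in WT macrophages. The genotypes did not overlap, but R213G replicate 2 lay close to WT and R213G replicate 1 far above it. The log2 fold change, R213G minus WT, was 0.26 ± 0.14 (SE; edgeR quasi-likelihood, unadjusted p = 0.106), and it was 0.06 without R213G replicate 1. Psmb9, the inducible counterpart of the caspase-like subunit (chromosome 17, 34181987 to 34187764, minus strand), had 60.6 and 55.9 CPM in R213G against 51.5 and 58.0 CPM in WT. Psmb10, the inducible trypsin-like subunit (chromosome 8, 105935735 to 105938444, minus strand), had 103 and 85.9 CPM in R213G against 90.2 and 85.5 CPM in WT. The libraries of the genotypes overlapped for both, with log2 fold changes of 0.09 ± 0.15 for Psmb9 and 0.10 ± 0.14 for Psmb10. In bulk RNA, fewer cells of a type and less RNA per cell cannot be told apart. Psmb8 was higher in the R213G library with the higher dendritic cell marker sum (217 CPM beside a sum of 196, and 167 CPM beside 56.3). In WT it was at 160.3 CPM beside a sum of 189.5 and at 162 CPM beside 46.6, and the part of these cells in the Psmb8 values was not tested. In the GENCODE spans Psmb9 overlaps Tap1 and Psmb7 overlaps Nek6, each on the other strand. The strand setting of the counting is not given in the sources used here.

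The constitutive catalytic subunits showed differences of similar size. Psmb7, the trypsin-like subunit (chromosome 2, 38588036 to 38644087, minus strand), was at 80.5 and 70.8 CPM in R213G and at 63.7 and 59.3 CPM in WT. Both R213G libraries lay above both WT libraries, with a log2 fold change of 0.30 ± 0.15 (edgeR quasi-likelihood, unadjusted p = 0.0689), which did not pass the test over all genes. Psmb6, the caspase-like subunit (chromosome 11, 70525367 to 70527858, plus strand), was at 152 and 162 CPM in R213G and at 145 and 156 CPM in WT, with overlapping libraries. Psmb5, the chymotrypsin-like subunit (chromosome 14, 54614119 to 54618022, minus strand), was at 32.2 and 40.1 CPM in R213G and at 34.1 and 34.1 CPM in WT. The WT libraries lay between the R213G libraries.

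**Figure D1:**
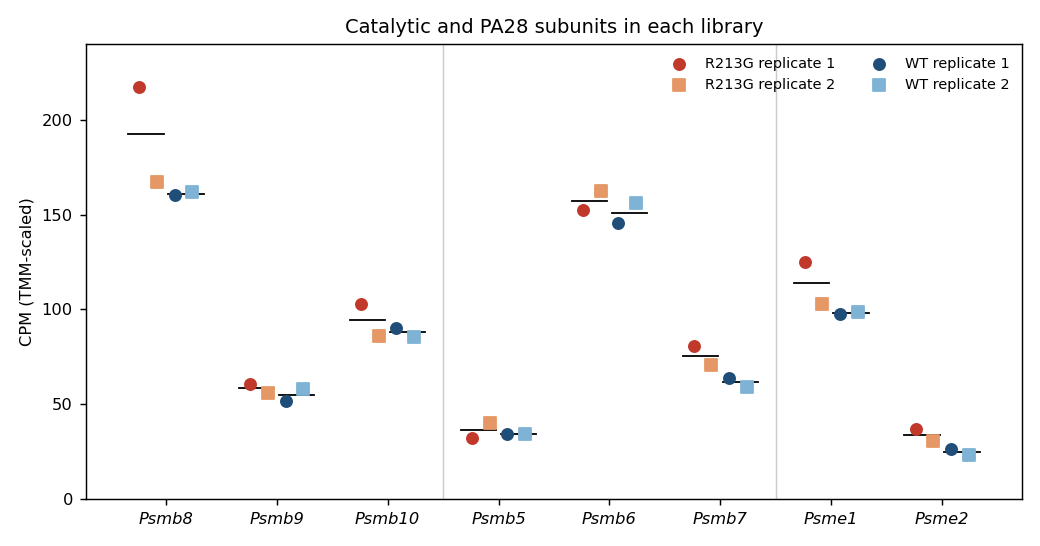
CPM of the inducible (Psmb8, Psmb9, Psmb10) and constitutive (Psmb5, Psmb6, Psmb7) catalytic subunits and of the PA28 subunits Psme1 and Psme2 in each library, with R213G left of WT and black lines at the mean of each genotype. Psmb8 in R213G replicate 1 (217 CPM) stands above the other 3 libraries (160.3 to 167 CPM), and Psmb5 is the lowest of the catalytic subunits in every library.

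The comparison of inducible with constitutive subunits asked whether the balance between their RNAs differed with genotype. Proteins and assembled cores were not measured. Each inducible subunit was divided by the constitutive subunit whose place it takes, within a library, which removes library scaling. The Psmb8 to Psmb5 count ratio was 6.74 and 4.17 in R213G, against 4.70 and 4.75 in WT. The R213G libraries lay on either side of WT. The Psmb9 to Psmb6 ratio was 0.398 and 0.344 in R213G, against 0.354 and 0.371 in WT, again overlapping. For Psmb10 to Psmb7 the ratio was 1.28 and 1.21 in R213G, against 1.41 and 1.44 in WT, lower in both R213G libraries than in both WT libraries. That log2 difference was -0.20 (exact two-sided permutation test, p = 0.333, the smallest that 2 libraries against 2 allow, and p = 1 after Benjamini-Hochberg adjustment over the 3 pairs). For Psmb8 to Psmb5 it was 0.17 and for Psmb9 to Psmb6 it was 0.03 (exact permutation p = 1 for each). Averaged over the pairs, the log2 ratio was 0.43 ± 0.23 in R213G and 0.43 ± 0.03 in WT (SD, n = 2 each). The difference of the averages was -0.0010, far within the gap between the R213G libraries, which were at 0.59 and 0.27 against 0.41 and 0.45 in the WT libraries.

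R213G replicate 1 was the library with the highest Psmb8 and the lowest Psmb5. Without the Psmb8 and Psmb5 pair the average log2 ratio was -0.49 and -0.63 in R213G, against -0.50 and -0.45 in WT, a difference of -0.08. Set against Psma1 to Psma7 and Psmb1 to Psmb4, the non-catalytic remainder of the core, the inducible subunits had log2 ratios of 0.78 and 0.78 in R213G, against 0.79 and 0.80 in WT. This near-constancy depended on the choice of genes: against the 7 of those 11 with little sequence in other genes, the values were -0.01 and -0.15 in R213G, against -0.20 and -0.10 in WT. The difference was -0.01 with all 11, where both R213G libraries lay below both WT libraries by a small margin (exact permutation p = 0.333, the smallest possible). It was 0.07 with the 7 (exact permutation p = 0.667), where the libraries overlapped.

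**Figure D2:**
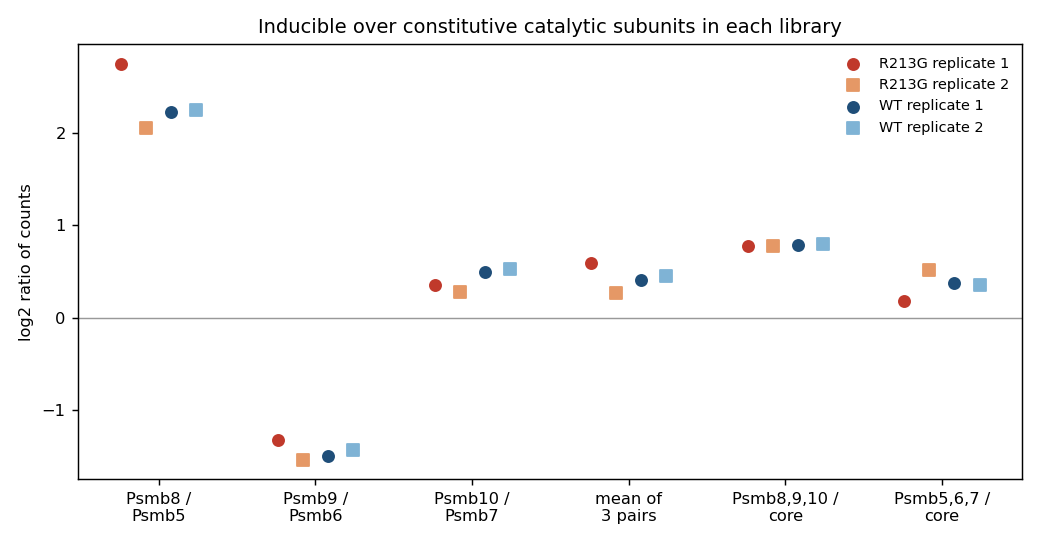
Log2 ratio of counts in each library for the 3 pairs of inducible and constitutive catalytic subunits, their mean, and each trio of catalytic subunits against the geometric mean of Psma1 to Psma7 and Psmb1 to Psmb4 (core). The R213G libraries lie on either side of WT for Psmb8 over Psmb5 (2.75 and 2.06 against 2.23 and 2.25) and below WT for Psmb10 over Psmb7.

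Levels of different genes were compared per length, with counts divided by the length of all annotated exons or by the coding length. On the mean of the 4 libraries, Psmb6 came first under both, with 216 CPM per coding kb and 82.3 CPM per exon kb, and the order of the others depended on the length used. In R213G replicate 1, Psmb8 exceeded Psmb6 per coding kb. Per coding kb, Psmb8 followed at 213.4, Psmb10 at 111, Psmb9 at 86.0, Psmb7 at 82.5 and Psmb5 at 44.4. Per exon kb, Psmb10 was at 53.4, Psmb8 at 52.3, Psmb5 at 39.1, Psmb7 at 20.05 and Psmb9 at 15.4. Under both lengths Psmb8 exceeded Psmb5 and Psmb10 exceeded Psmb7 in all 4 libraries, while Psmb9 stayed below Psmb6. Per coding kb the Psmb8 to Psmb5 ratio was 6.45 and 3.99 in R213G, against 4.50 and 4.54 in WT. Per exon kb it was 1.79 and 1.11 in R213G, against 1.25 and 1.26 in WT. The Psmb9 to Psmb6 ratio per coding kb was 0.432 and 0.374 in R213G, against 0.385 and 0.403 in WT, and Psmb10 to Psmb7 was 1.30 and 1.23 in R213G, against 1.44 and 1.46 in WT.

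Copies of these genes elsewhere in the genome bear on such levels, because reads that map to several places may be left out of counts. For each gene the share of 50-base stretches of its longest coding transcript that also occur in transcripts of genes elsewhere was taken from GENCODE vM21. The share was 0% for 30 of the 49 genes and at least 10% for 11. It was 50% for Psmb5, mostly shared with the gene model Gm3375, and 0% for Psmb7, Psmb8, Psmb9 and Psmb10. It was 55.8% for Psmb3, 54.5% for Psma5, 25.6% for Psma4 and 22.0% for Psma3. These 5 subunits had 10.9 to 104 CPM per coding kb (median 38.03), and the other 12 subunits of the core had 82.5 to 216 (median 145). Psma5 and Psma3, which form part of the same ring as Psma6 at 113 CPM per coding kb, were at 10.9 and 11.8. The authors' treatment of such reads is not given in the sources used here, and its part in these levels was not tested. The ratio of Psmb8 to Psmb5 rests on a denominator of this kind.

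**Figure D3:**
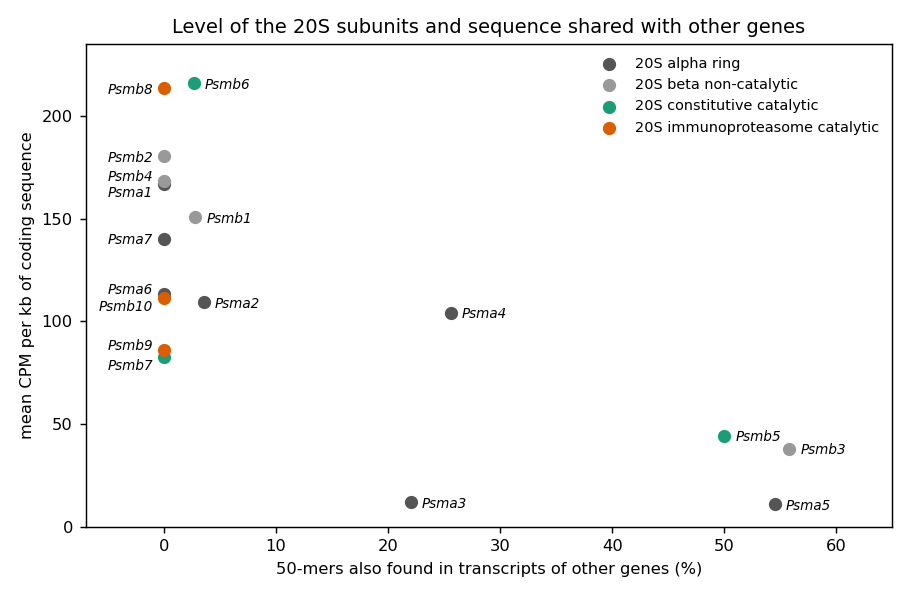
Mean CPM per kb of coding sequence over the 4 libraries (vertical axis) against the percent of 50-base stretches also found in transcripts of other genes (horizontal axis) for the 17 subunits of the 20S core. Psmb5, Psmb3, Psma5 and Psma3, all with at least 22.0% shared, are the 4 lowest points.

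Across all 49 genes, none passed the test between genotypes (edgeR quasi-likelihood with Benjamini-Hochberg adjustment; smallest adjusted p 0.9996), as was so for 0% of all 13575 genes. At an unadjusted p under 0.05 the count was 0 of 49, against 2.22% of all genes (0.936% higher in R213G and 1.29% lower). DESeq2 also called 0 of the 49. The fold changes leaned one way: 38 of 49 were positive (77.6%), against 49.1% of all genes, with a median log2 fold change of 0.10 against -0.01 for all genes. Both R213G libraries lay above both WT libraries for 19 of 49 genes (38.8%), against 13.7% of all genes, and below them for 3 (6.12%), against 15.2%. The genes share their libraries and are not independent, so these shares are a description and not a test. For 11 of the 19 the lower R213G library exceeded the higher WT library by less than 10%. The lean was largest in R213G replicate 1, which was the highest library for 30 of the 49 genes, against 31.2% of all genes. This library also had the fewest genes detected and the highest dendritic and epithelial marker sums, the latter mainly from Cdh1 and Epcam. The part of these in the lean was not tested. Summed CPM of the 49 genes was 4100.5 and 3868 in R213G, against 3787 and 3694 in WT. Without R213G replicate 1, 33 of 49 were positive and the median was 0.06. Without R213G replicate 2, 9 of 49 had an unadjusted p under 0.05 (18.4%), against 13.5% of all genes, and none passed after adjustment. For 34 of the 49 genes the gap between the libraries of at least 1 genotype was larger than the fold change itself.

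**Figure D4:**
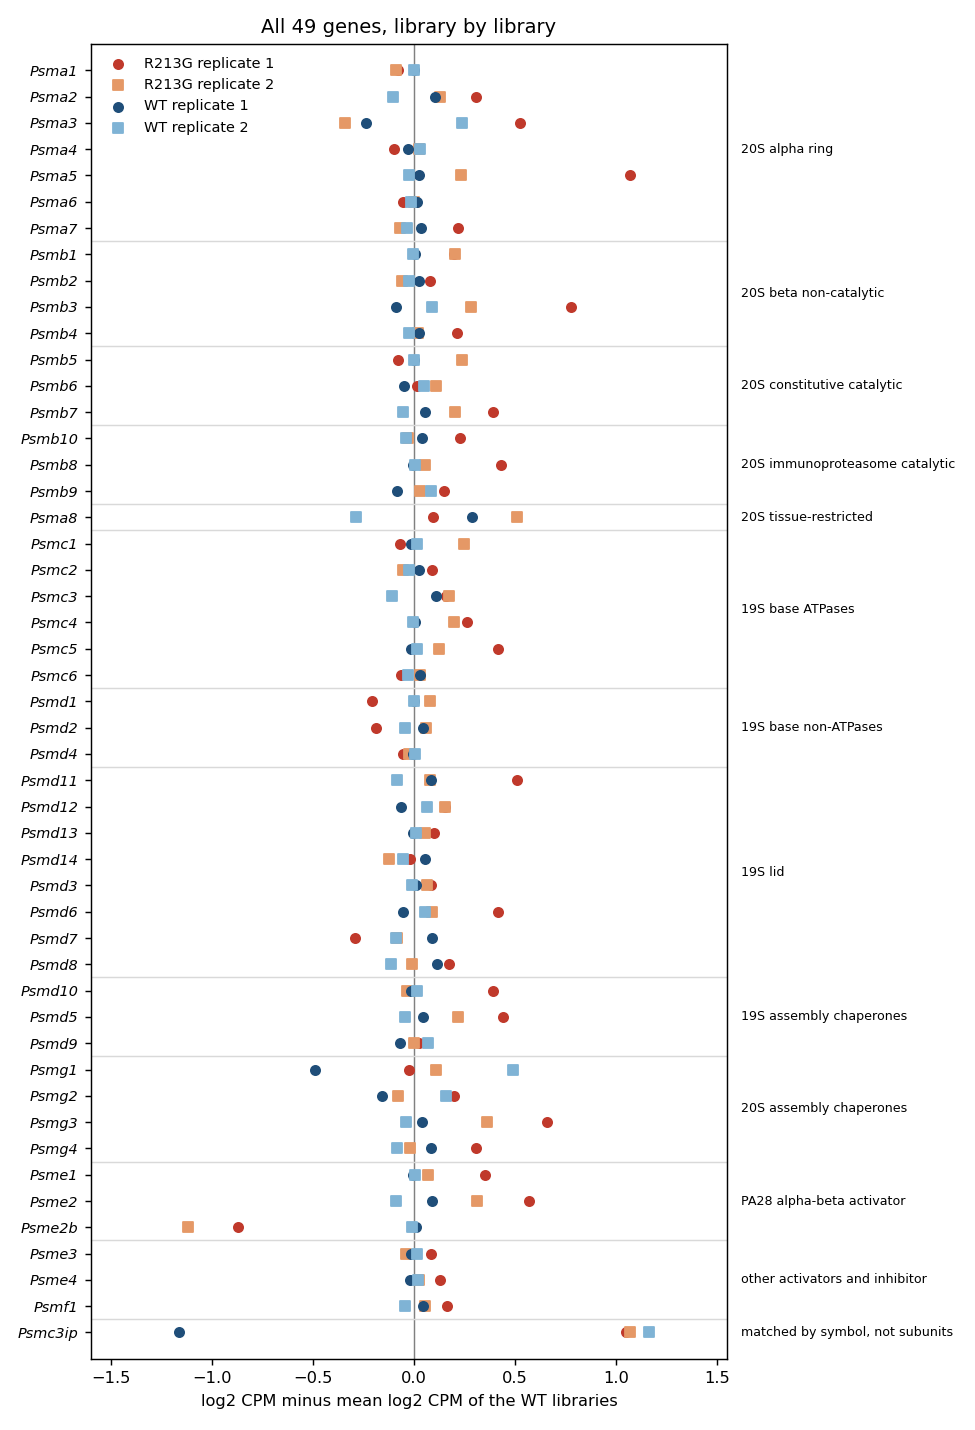
Log2 CPM of each of the 49 genes in each library, minus the mean log2 CPM of the WT libraries, grouped by role. R213G replicate 1 lies farthest to the right for 30 of the 49 genes.

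Of the 7 alpha subunits, which gate the barrel, 4 had a positive fold change (median 0.08). Of the genes with a mean of at least 5 CPM, Psma5 had the largest positive fold change, 0.71 ± 0.41 on the log2 scale. Psma5 was at 12.6 and 7.04 CPM in R213G and at 6.08 and 5.89 CPM in WT. R213G replicate 1 set most of the fold change, which was 0.24 without it. Of the 50-base stretches of Psma5, 54.5% also occur in transcripts of other genes. Psma6, the highest alpha subunit per exon kb, was at 81.3 and 84.6 CPM in R213G and at 85.4 and 83.6 CPM in WT. Psma2, Psma4 and Psma7 lay between 65.9 and 118 CPM in all libraries, and Psma3 between 6.72 and 12.3 CPM. Psma1 was lower in both R213G libraries, at 128 and 127 CPM against 136 and 135 CPM in WT, a log2 fold change of -0.08 ± 0.12. All 4 non-catalytic beta subunits had positive fold changes (median 0.16). Psmb3 was at 32.5 and 23.0 CPM in R213G and at 17.8 and 20.2 CPM in WT (log2 fold change 0.55 ± 0.24; edgeR quasi-likelihood, unadjusted p = 0.051), the smallest p of the 49. The fold change was 0.28 without R213G replicate 1. Psmb1 was at 116 and 116 CPM in R213G and at 101 and 101 CPM in WT, with a log2 fold change of 0.20 ± 0.12. Psmb2, the highest per exon kb, was at 114 and 104 CPM in R213G and at 110.1 and 106 CPM in WT. Psmb4 lay between 126 and 148 CPM in all libraries. Psma8, which replaces an alpha subunit in the testis, was at 1.69 to 2.93 CPM in all libraries.

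Of the 17 subunits of the 19S particle, fold changes were positive for 11 (median 0.08), and none passed the test. The 6 Psmc genes encode the ATPases that unfold substrates, and 5 of them were positive (median 0.13). Psmc5 was at 91.2 and 74.7 CPM in R213G and at 67.8 and 69.1 CPM in WT, and Psmc4 at 117 and 112 CPM in R213G and at 97.9 and 97.0 CPM in WT. Their log2 fold changes were 0.28 ± 0.15 and 0.23 ± 0.13, with the libraries of the genotypes apart for both. Without R213G replicate 1 they were 0.13 for Psmc5 and 0.20 for Psmc4. Psmc3 also lay apart, at 146 and 147 CPM in R213G and at 141 and 121 CPM in WT. That made 3 of the 6 ATPases apart with R213G higher, against 13.7% of all genes. Psmc1, Psmc2, Psmc3 and Psmc6 lay between 62.2 and 147 CPM. None of the 3 non-ATPase subunits of the base was positive. Psmd2, its large scaffold, was at 188 and 224 CPM in R213G and at 222 and 208 CPM in WT, and the ubiquitin receptor Psmd4 was at 93.3 and 95.2 CPM in R213G and at 96.5 and 97.4 CPM in WT. Psmd1, the other scaffold, lay between 111 and 136 CPM. Of the 8 lid subunits 6 were positive (median 0.08). Psmd8 was the most abundant of all 49 genes, at 346 and 304 CPM in R213G and at 332 and 284 CPM in WT, with replicate 1 the higher library in both genotypes. Psmd11 was at 88.9 and 66.1 CPM in R213G and at 66.4 and 58.9 CPM in WT, with overlapping libraries and a log2 fold change of 0.31 ± 0.17 that was 0.08 without R213G replicate 1. The other lid subunits Psmd3, Psmd6, Psmd12 and Psmd13 lay apart with R213G higher, by small margins. The lower R213G library was at 149, 64.95, 69.2 and 76.1 CPM, in that order. The higher WT library was at 144, 63.56, 65.2 and 73.7 CPM. The log2 fold changes of these genes were 0.07 ± 0.12, 0.26 ± 0.16, 0.15 ± 0.14 and 0.08 ± 0.13. Of all genes, 13.7% lay apart with R213G higher. Psmd14, the enzyme that removes the ubiquitin chain, was at 74.3 and 69.0 CPM in R213G and at 78.2 and 72.4 CPM in WT. Psmd7, its partner, had the largest negative fold change of the genes with a mean of at least 5 CPM, -0.19 ± 0.15. Psmd7 was at 69.9 and 80.9 CPM in R213G and at 91.1 and 80.5 CPM in WT.

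The chaperones of the 19S base, Psmd5, Psmd9 and Psmd10, summed to 93.1 and 80.2 CPM in R213G and to 75.4 and 76.3 CPM in WT. Psmd5 was the 1 of the 3 whose libraries did not overlap, at 40.7 and 34.9 CPM in R213G and at 30.9 and 29.0 CPM in WT. Of all genes, 13.7% lay apart with R213G higher. The log2 fold change of Psmd5 was 0.33 ± 0.19, or 0.22 without R213G replicate 1. Psmd10 was at 26.2 and 19.4 CPM in R213G and at 19.7 and 20.1 CPM in WT. Psmd9 lay between 24.7 and 27.2 CPM. The 4 Psmg genes, which pair up to build the alpha ring, summed to 43.9 and 38.9 CPM in R213G and to 33.4 and 43.3 CPM in WT. Psmg2 lay between 12.4 and 15.96 CPM. Of the 4, Psmg1 varied most between the WT libraries, at 11.3 and 12.4 CPM in R213G and at 8.17 and 16.1 CPM in WT. Psmg3 was at 7.23 and 5.89 CPM in R213G and at 4.72 and 4.46 CPM in WT, and Psmg4 at 9.40 and 7.501 CPM in R213G and at 8.05 and 7.17 CPM in WT.

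Both subunits of the interferon-inducible activator PA28 were higher in both R213G libraries than in either WT library, without passing the test. Of all genes, 13.7% lay apart in this direction and 15.2% in the other. Psme2 (chromosome 14, 55587441 to 55591113, minus strand) was at 36.8 and 30.7 CPM in R213G and at 26.3 and 23.3 CPM in WT. Its log2 fold change was 0.44 ± 0.20 (edgeR quasi-likelihood, unadjusted p = 0.054). Psme1 (chromosome 14, 55578123 to 55581529, plus strand) was at 125 and 103 CPM in R213G and at 97.6 and 98.6 CPM in WT, with a log2 fold change of 0.22 ± 0.14. It was 0.07 without R213G replicate 1. Psme2b, a copy of Psme2 on chromosome 11 that overlaps 2 other gene models on its strand, was lower in both R213G libraries, at 64 and 55 counts in R213G and 114 and 117 counts in WT. That difference, -0.99 ± 0.58 on the log2 scale, missed the threshold. Of the 50-base stretches of Psme2, 59.3% also occur in Psme2b, so reads of the copies could be split between them. The counts of Psme2 and Psme2b together were 1319 and 1122 in R213G, against 982 and 916 in WT, still apart, with a log2 ratio of mean CPM of 0.33. Psme3, the nuclear form of PA28, was at 150.2 and 138 CPM in R213G and at 140.1 and 143 CPM in WT, and Psme4 at 109.7 and 102 CPM in R213G and at 99.0 and 102 CPM in WT. Psmf1, which binds the core and inhibits it in vitro, was at 32.2 and 29.9 CPM in R213G and at 29.6 and 27.8 CPM in WT. Psmc3ip was at 2.67 and 2.70 CPM in R213G and at 0.575 and 2.89 CPM in WT, with WT replicate 1 apart.

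Genes that work with the proteasome were read from a list of partners: other subunits, the maturation factor Pomp, shuttle receptors, deubiquitinases and the regulator Nfe2l1. Of the 22 measured, 15 had a positive fold change (median 0.03) and 0 passed over all genes. Nfe2l1 encodes NRF1, which raises proteasome genes when the protease is inhibited, and was at 197 and 214 CPM in R213G and at 223 and 204 CPM in WT. Pomp was at 77.2 and 85.7 CPM in R213G and at 74.8 and 84.4 CPM in WT. None of the 22 had an unadjusted p under 0.05, against 2.22% of all genes. Zfand5, a proteasome-binding activator, was at 74.5 and 77.4 CPM in R213G and at 70.8 and 66.3 CPM in WT, a difference of 0.15 ± 0.14 on the log2 scale.

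Genes that carry proteasome products to MHC class I, and the interferon gamma pathway that induces the immunoproteasome, were read likewise. Of 12 genes of peptide supply 6 were positive (median -0.01), and 0 passed over all genes. Tap1, the peptide transporter that shares its promoter stretch with Psmb9, was at 141 and 155 CPM in R213G and at 147 and 156 CPM in WT. Lap3, an aminopeptidase that trims peptides, was at 136 and 191 CPM in R213G and at 103 and 97.3 CPM in WT (log2 fold change 0.71 ± 0.17; edgeR quasi-likelihood, unadjusted p = 0.00198, adjusted p = 0.9996). It was the 1 of these 12 with an unadjusted p under 0.05, against 2.22% of all genes. Its fold change was 0.44 without R213G replicate 2. Its higher R213G library was replicate 2, where Psmb8, Psme1 and Psme2 had their lower R213G value. Tapbpl, which edits class I peptides, had a log2 fold change of 0.32 ± 0.21. Of 21 measured genes of the interferon gamma response 13 were positive (median 0.06) and 0 passed. At an unadjusted p under 0.05 the count was 0 of 21, against 2.22% of all genes. Nlrc5, the activator of MHC class I genes, was at 82.7 and 98.0 CPM in R213G and at 94.8 and 106 CPM in WT. Irf1 was at 64.1 and 62.0 CPM in R213G and at 58.3 and 62.4 CPM in WT. The chemokine Cxcl10 and the GTPase gene Gbp3 had the smallest p of this list, with log2 fold changes of 0.62 ± 0.31 and 0.27 ± 0.18. That of Cxcl10 was 0.31 without R213G replicate 2, and that of Gbp3 was 0.07 without R213G replicate 1.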

How the data were processed

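The authors deposited raw read counts per gene symbol, 1 column per library. Alignment and counting names listed per the submitters' processing notes are featureCounts, Subread 1.4.4, STAR 2.5.1b and GRCm38. How multi-mapping reads, strand and annotation release were handled is not given there. Sample titles gave groups and replicate numbers. Every pair of libraries differed beyond sampling noise. Chi-square over its degrees of freedom was lowest between R213G replicate 2 and WT replicate 2 (17.5) and highest between the R213G libraries (57.1). Between the WT libraries it was 33.2.

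All genes were fitted together with edgeR 4.0.16 (quasi-likelihood, legacy = FALSE set explicitly, robust, TMM, filterByExpr by group, Benjamini-Hochberg over 13575 genes, threshold 0.05) in R 4.3.3. The fit had 2 residual degrees of freedom. An SE was taken as the absolute log2 fold change over √F. Pair ratios used counts plus 0.5 and exact permutation tests (scipy 1.17.1). Positions, exon and coding lengths and shared 50-base stretches were read from GENCODE vM21, a GRCm38 annotation, in which 49 of 49 symbols were found. The scripts were tested on counts simulated from the means, library sizes and spread of these data. Of changes placed in genes with a mean of at least 5 CPM, 12.8% were recovered at 1.5-fold and 55.6% at 2-fold. Many changes of 1.5-fold and 2-fold were thus missed, and changes below 1.5-fold were not simulated. A gene that did not pass may still differ by any of these amounts.

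The genes and lists were chosen with earlier results of these data known. Named genes were the catalytic and PA28 subunits, the highest member per exon kb of each role, the largest fold changes among genes with a mean of at least 5 CPM, fixed pathway genes and the 2 of smallest p in each pathway list. Other members were named after their values were seen. A few genes that met this rule are not reported here. Listed markers absent from the table are not analysed here. The alternatives tried are given at the end.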

Additional observations from a re-analysis of the deposited data

How the results depend on the processing

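The number of the 49 genes past the adjusted threshold stayed at 0 with upper-quartile scaling, with size factors of DESeq2, without the low-count filter, with DESeq2 1.42.0, limma voom 3.58.1, the legacy form, the replicate block and leaving out each library. Over all genes the count was 0 in the main setting, 1 with DESeq2 and 0 to 2 when a library was left out. The median log2 fold change of the 49 genes ranged from 0.06 to 0.15 when a library was left out. The inducible over constitutive index difference of -0.0010 turned to 0.049 with summed counts and ranged from -0.16 (without R213G replicate 1) to 0.16 (without R213G replicate 2) when a library was left out. A different ratio, inducible subunits over core subunits of little shared sequence (chosen after seeing the data), differed by 0.072, and constitutive subunits over the same core by 0.073. The level of the index per length, a mean log2 ratio of -0.19 with exon length, was 0.46 with coding length, by construction of the lengths.

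The replicate numbers are not stated to pair samples, and same-numbered libraries' deviations from their group means had a correlation of 0.0926 over genes. With a replicate block 0 of the 49 genes passed and the median was 0.09, the index difference was -0.0010, which a block cannot move in this balanced design, and 298 of all genes had an unadjusted p under 0.05 instead of 302. Psme2 was the 1 of the 49 genes with an unadjusted p under 0.05 under the block (2.04%, against 2.20% of all genes), and likewise with limma voom (2.04%, against 1.48% of all genes).

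Among single genes, Psmg1 turned from -0.043 to 0.034 with limma voom. The sign also turned in some fits without 1 library, where log2 fold changes spanned -0.031 to 0.23 for Psmb10, -0.083 to 0.24 for Psmb5, -0.027 to 0.20 for Psmd8, -0.19 to 0.060 for Psmd2, -0.069 to 0.21 for Psma7, -0.45 to 0.53 for Psmg1 and -0.037 to 0.082 for Psme3. They spanned -0.059 to 0.0028 for Psma6, -0.060 to 0.076 for Psmb2, -0.035 to 0.39 for Psmd10, -0.018 to 0.30 for Psmg4, -0.10 to 2.21 for Psmc3ip, -0.11 to 0.036 for Tap1, -0.12 to 0.0083 for Nfe2l1 and -0.051 to 0.12 for Pomp. The cause was not tested.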
